A study of Homo sapiens with 6 samples.

Results

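The metallothionein and zinc response genes MT1E, MT1F, MT1G, MT1M, MT1X, MT2A, MTF1 and SLC30A1 were examined in HT29 cells after ALDOA knockdown. These 8 genes were taken by symbol for their known place in zinc handling, out of 28278 gene symbols with counts. HT29 is a human colorectal adenocarcinoma cell line, and ALDOA encodes aldolase A of glycolysis. The study asked which transcripts change when ALDOA is lost from colorectal cancer cells. Total RNA was sequenced from 3 libraries of cells given a small interfering RNA against ALDOA (siALDOA) and 3 libraries given a scrambled siRNA (siControl), all collected after 48 h. Both groups were thus transfected, no untransfected or zinc-treated cells were included in the data used here, and 1 cell line was used. The labels call the replicates biological, without saying whether they came from separate cultures started on different days, so the p-values measure the spread between these libraries.

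Metallothioneins are small, cysteine-rich proteins that bind zinc, copper and cadmium and release zinc to other proteins. When free zinc rises, the transcription factor MTF1 binds it, enters the nucleus and binds short metal response elements in front of the metallothionein genes and of SLC30A1, whose product (ZnT1) exports zinc across the plasma membrane. In the intestinal epithelium metallothioneins and ZnT1 are known as a buffer and an outlet for dietary zinc, so their RNA is a common readout of the zinc that a cell senses.

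The metallothionein genes lie side by side on chromosome 16, and the cluster spanned 119.1 kb from MT4 to MT1X (chr16:56565073-56684196, hg38, GENCODE 44) with 16 metallothionein genes and pseudogenes. In the order of the chromosome, MT2A is at chr16:56608584-56609497, MT1E at chr16:56625475-56627112, MT1M at chr16:56632659-56633981 and MT1F at chr16:56657731-56660698, all on the plus strand. MT1G follows on the minus strand at chr16:56666730-56668065, and MT1X lies on the plus strand at chr16:56682470-56684196. Both other genes are on the minus strand of chromosome 1, MTF1 at chr1:37809574-37859592 and SLC30A1 at chr1:211571568-211579161.

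The bases just before the gene start are shown because they hold the elements through which MTF1 is known to act. Promoter sequences from RefSeq (GRCh38.p14, the hg38 assembly) matched 4 of the 8 genes, MT2A, MT1X, SLC30A1 and MTF1. MT1E, MT1F, MT1G and MT1M were not matched. The 250 bases before the start are printed 5′ to 3′ on the strand of the gene, and capitals mark the cores of metal response elements, searched as TGCACNC and TGCGCNC on both strands. The MT2A stretch is chr16:56608334-56608583, that of MT1X chr16:56682220-56682469, that of SLC30A1 chr1:211579162-211579411 and that of MTF1 chr1:37859593-37859842.
MT2A: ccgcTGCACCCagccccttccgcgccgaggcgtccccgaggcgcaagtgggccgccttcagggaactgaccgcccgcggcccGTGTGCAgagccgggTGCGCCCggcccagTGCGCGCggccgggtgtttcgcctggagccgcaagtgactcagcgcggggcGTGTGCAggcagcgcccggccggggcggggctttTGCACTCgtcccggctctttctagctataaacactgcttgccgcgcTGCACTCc
MT1X: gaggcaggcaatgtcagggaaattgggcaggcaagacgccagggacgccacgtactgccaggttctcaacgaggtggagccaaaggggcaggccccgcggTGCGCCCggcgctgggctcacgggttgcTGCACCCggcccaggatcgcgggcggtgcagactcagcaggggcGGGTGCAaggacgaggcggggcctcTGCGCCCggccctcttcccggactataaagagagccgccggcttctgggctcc
SLC30A1: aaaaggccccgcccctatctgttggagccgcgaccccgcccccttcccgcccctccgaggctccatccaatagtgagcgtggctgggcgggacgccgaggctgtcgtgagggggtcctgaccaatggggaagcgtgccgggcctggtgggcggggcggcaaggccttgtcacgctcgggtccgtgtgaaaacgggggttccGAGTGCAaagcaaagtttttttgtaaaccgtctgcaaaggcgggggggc
MTF1: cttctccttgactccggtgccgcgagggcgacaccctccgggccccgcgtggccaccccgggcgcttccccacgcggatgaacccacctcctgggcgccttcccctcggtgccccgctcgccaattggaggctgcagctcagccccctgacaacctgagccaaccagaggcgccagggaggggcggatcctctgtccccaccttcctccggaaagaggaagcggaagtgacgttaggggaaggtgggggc

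MT2A held 7 cores, and 0.0313% of the 35116 promoters in the table held at least as many. MT1X held 4 cores, a number reached by 0.37% of promoters. SLC30A1 held 1 core, at 49 bases before the start on the opposite strand, and 24.8% of all promoters held 1 or more. These letters were not found in the MTF1 stretch. Cores did not overlap one another in any of these stretches. G and C made up 73.2% of the MT2A stretch, 70% of those of MT1X and MTF1 and 66.4% of that of SLC30A1. The shares over all promoters were not matched for G and C content. A core here is a match to these letters, and binding was not measured. The core nearest to the start of MT2A began at -8, and both MT2A and MT1X carried a core at about the same place, at -54 and -53. A further metallothionein of the cluster, MT1H, held 8 cores and was listed at 0 counts in all 6 libraries, which may come from the annotation or the counting as well as from absent RNA.

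**Figure D1:**
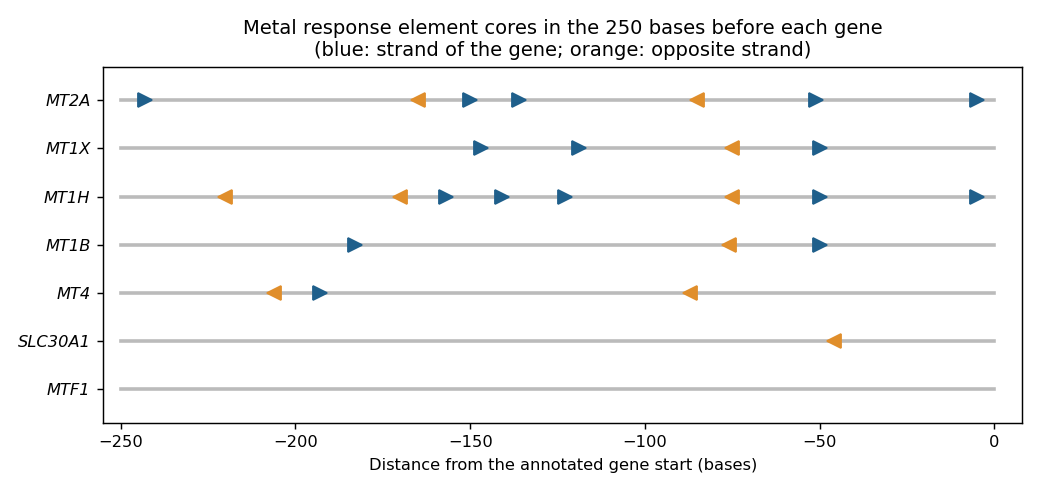
Positions of metal response element cores in the 250 bases before the annotated start of 7 genes (x axis, bases from the start; one line per gene, blue triangles on the strand of the gene, orange on the opposite strand). MT2A has 7 cores from -246 to -8, MT1X has 4 from -150 to -53, SLC30A1 has 1 and MTF1 has none; MT1H, MT1B and MT4, which have 8, 3 and 3, are shown for comparison.

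The libraries held 27277538 to 33237914 counts, and ribosomal RNA genes took 7.71% to 17.4% of them, most in siControl 1. ALDOA, the siRNA target, was lower in every siALDOA library (289 ± 13.7 CPM against 632 ± 38.2 CPM, SD, n = 3; log2 fold change -1.13, adjusted p = 6.95e-11, edgeR). CPM values are counts scaled by library size and TMM factor, and a log2 fold change is siALDOA against siControl, with negative values where siALDOA was lower. Of the 15307 genes that passed the filter on low counts, 668 were higher and 810 lower at an adjusted p below 0.05, 9.66% of the genes tested. With library totals in place of TMM factors the split was 896 higher and 279 lower, and the median of all genes moved from 0.00162 to 0.075 (log2). Of 10 markers of colorectal epithelium 9 were tested, with summed CPM of 8390 to 8620 in siALDOA and 9200 to 9660 in siControl. Most of the difference in this sum lay in the keratins KRT8 (5093 against 5595 CPM, not called) and KRT18 (1910 against 2320 CPM). Estimates were below 0 for 8 of the 9 and groups did not overlap for 5, against 27.7% of all tested genes, and edgeR called 1 (KRT18, log2 fold change -0.28), limma-voom 3 and DESeq2 2. LGALS4, also an epithelial marker, was listed at 0 in every library, and a listed 0 may come from the annotation or the counting as well as from absent RNA. The 6 fibroblast markers summed to 3.05 to 4.46 CPM over all libraries. Of the blood markers, PTPRC, HBB and CD3E had 0 to 4 counts in all, while LYZ and CD14 were present in every library and CD14 was higher in siALDOA (log2 fold change 0.32, adjusted p = 0.0485, edgeR), a call that limma-voom did not make. In these bulk libraries fewer cells with a transcript and less of it per cell cannot be told apart.

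Among the 8 genes, MT1E fell after ALDOA knockdown, and MT2A, MTF1 and SLC30A1 stayed within the spread between libraries. MT1X and MT1F had lower means in siALDOA but rested on few counts, MT1G had 5 counts in all, and MT1M was listed at 0. The filter on low counts was passed by 5 of the 8 (MT1E, MT1X, MT2A, MTF1 and SLC30A1), and 1 of these was called. The share of all tested genes called lower was 5.29%. At the unadjusted p below 0.01 that the study used, the same gene, MT1E, was the one called, against 12.5% of all genes in either direction.

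MT1E, one of the inducible metallothioneins found in many epithelia, was measured with 555, 544 and 415 counts in siALDOA 1 to 3 and with 644, 828 and 812 counts in siControl 1 to 3. These were 19.9, 18.1 and 14.6 CPM in siALDOA and 20.7, 27.1 and 24.6 CPM in siControl. The groups did not overlap, though siALDOA 1 and siControl 1 were close to each other. One of the 5 tested genes, MT1E, had groups apart in this way, as did 27.7% of all tested genes. The means were 17.6 ± 2.71 and 24.1 ± 3.27 CPM (SD, n = 3). The log2 fold change was -0.46 (SE 0.116, 95% interval -0.702 to -0.218, adjusted p = 0.014, edgeR), or 0.727 of the siControl level. The call was lost without siALDOA 3 (log2 fold change -0.34, adjusted p = 0.0822), without siControl 2 (-0.37, adjusted p = 0.102) or without siControl 3 (-0.45, adjusted p = 0.056) in edgeR. The estimate was below 0 in all 14 alternative fits and ranged from -0.56 to -0.34. Without ribosomal RNA genes it was -0.46 (adjusted p = 0.0118, edgeR).

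MT2A, the most widely transcribed human metallothionein, had 8.95, 11.1 and 10.6 CPM in siALDOA and 6.51, 13.2 and 11.2 CPM in siControl, from 203 to 402 counts per library. The siALDOA libraries all lay inside the range of the siControl libraries. The log2 fold change was -0.01 (SE 0.179, adjusted p = 0.976, edgeR), and the 95% interval of -0.385 to 0.362 left room for a change in either direction. The lowest MT2A value belonged to siControl 1, the library with the highest share of ribosomal RNA, and the estimate was -0.25 without it and 0.20 without siControl 2 (adjusted p = 0.292 and 0.614, edgeR). Without ribosomal RNA genes it stayed at -0.01. The difference between the log2 fold changes of MT1E and MT2A was not tested.

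MT1X, a further inducible isoform, had 23, 30 and 9 counts in siALDOA and 23, 52 and 46 counts in siControl, or 0.826, 0.998 and 0.317 CPM against 0.738, 1.70 and 1.40 CPM. The groups overlapped, since siControl 1 was lower than siALDOA 1 and 2. The log2 fold change of -0.83 (SE 0.438, 95% interval -1.75 to 0.0795, adjusted p = 0.259, edgeR) did not pass the threshold here or in any alternative fit that gave it an adjusted p. Over the 13 alternative fits that held the gene it ranged from -1.16 to -0.48. MT1X also overlaps an unnamed gene (ENSG00000259827) on the same strand, and 6.67% of the 150-base words in its transcript, the length of the reads, also occur in that gene.

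MT1F had 4, 2 and 4 counts in siALDOA and 7, 19 and 20 counts in siControl. Every siALDOA library was below every siControl library, and 3 counts correspond to 0.091 to 0.108 CPM, so the siALDOA values of 0.0666 to 0.144 CPM were at the limit of detection. The gene was under the filter on low counts with all 6 libraries and had no test there. It entered 5 alternative fits, with log2 fold changes from -2.36 to -1.74. Those that left out a library held it only through its counts in siControl, the group where it was higher, so they cannot test whether it fell. Its 1 call came from such a fit, that without siControl 1 (adjusted p = 0.0303, edgeR). The fit with no filter did not call it (-2.03, adjusted p = 0.107, edgeR).

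MT1G was counted 0, 1 and 0 times in siALDOA and 1, 2 and 1 times in siControl, which is at or under 3 counts per library, and MT1M was listed at 0 in all 6. How reads matching several genes were counted is not given in the sources used here. Some 19.9% of the 50-base words in the MT1G transcript and 14.6% of those in MT1M also occur in other metallothionein transcripts, but none of their 150-base words do. For MT1E and MT2A the shared part was 10.3% and 11.1% of 50-base words and 0% of 150-base words. MT1X shared the most, 51% of its 50-base words, with MT2A, MT1F, MT1G and MT1M among the other genes, and for MT1F it was 6.12%. Of 14 other metallothionein genes and pseudogenes, 10 were in the files, none passed the filter, and 6 of them (MT1B, MT1H, MT1HL1, MT1JP, MT1IP and MT4) were listed at 0 in every library. MT1A had 28 counts over all libraries and the brain isoform MT3 had 12.

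**Figure D2:**
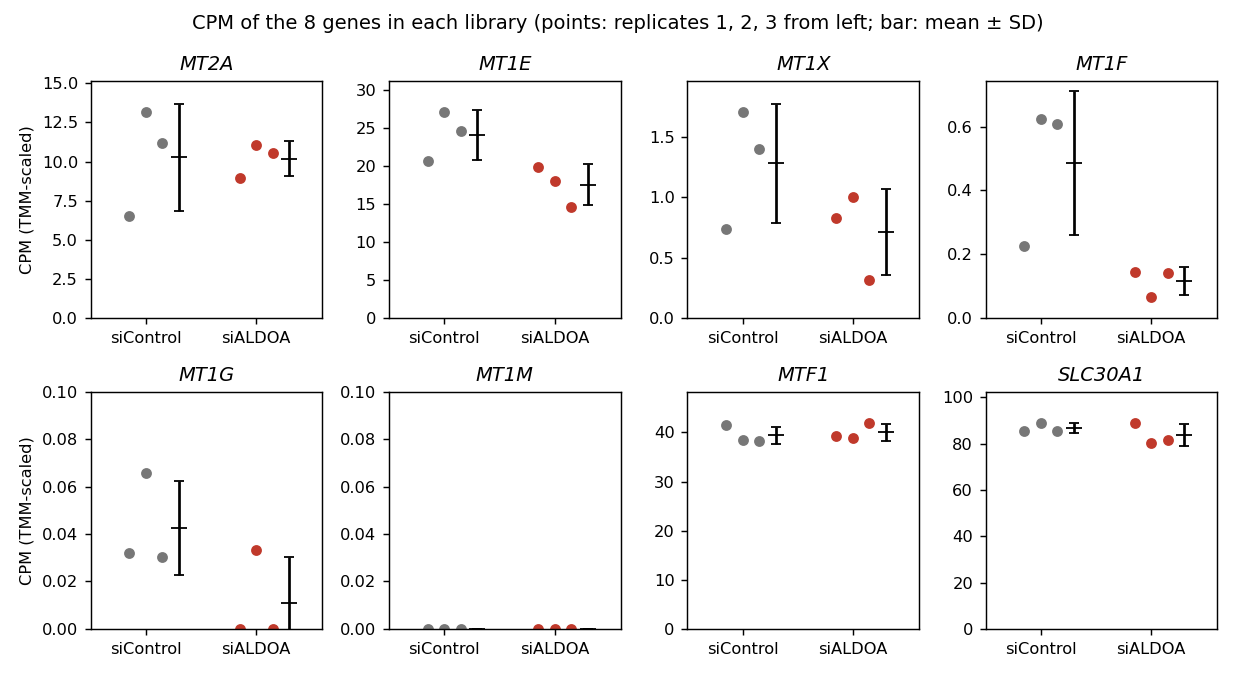
CPM after TMM scaling (y axis, one linear scale per panel) of the 8 genes in 3 siControl libraries (grey) and 3 siALDOA libraries (red), with the mean and SD in black. For MT1E the siALDOA points (14.6 to 19.9) lie below the siControl points (20.7 to 27.1), while for MT2A, MTF1 and SLC30A1 the points of both groups overlap.

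Because metallothioneins share sequence, their counts were also summed in each library. The sum over MT1E, MT1F, MT1G, MT1M, MT1X and MT2A was 29.9, 30.3 and 25.6 CPM in siALDOA and 28.2, 42.7 and 37.8 CPM in siControl. The value of siControl 1 fell among the siALDOA values, so the groups overlapped. The mean was 28.6 ± 2.57 CPM against 36.2 ± 7.4 CPM (SD, n = 3), a log2 ratio of -0.34 with no test. The ratio was -0.50 without siControl 1 and -0.21 without siControl 2. MT1E supplied 66.8%, 59.8% and 57% of the metallothionein counts in siALDOA and 73.3%, 63.5% and 65.1% in siControl, and MT2A supplied 30%, 36.6% and 41.2% against 23.1%, 30.9% and 29.5%. The exact (Clopper-Pearson) 95% binomial interval of the MT2A share, which covers counting error alone, was 26.9% to 33.2%, 33.5% to 39.8% and 37.6% to 44.9% in siALDOA 1 to 3 and 20.4% to 26.1%, 28.4% to 33.4% and 27% to 32.1% in siControl 1 to 3. The interval of siALDOA 1 overlapped those of siControl 2 and 3. There were 2.23, 1.63 and 1.38 MT1E counts per MT2A count in siALDOA and 3.17, 2.06 and 2.21 in siControl. These ratios do not depend on library scaling, and they overlapped between the groups through siALDOA 1. Replicate 1 had the highest MT1E share in both groups.

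**Figure D3:**
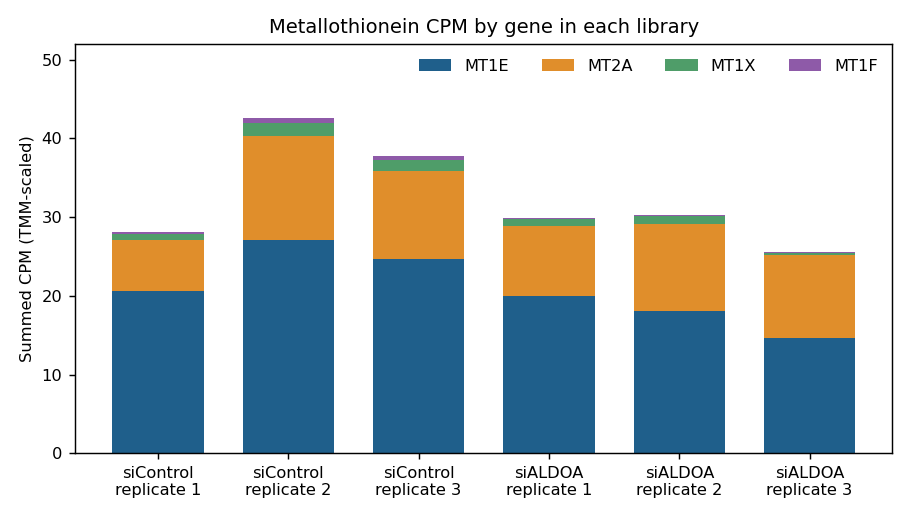
Summed CPM (y axis) of the metallothioneins in each of the 6 libraries, stacked by gene; MT1G, with at most 2 counts per library, and MT1M, at 0, are not drawn. MT1E (blue) and MT2A (orange) make up nearly all of each bar, and the siControl 1 bar (28.2) is within the range of the siALDOA bars (25.6 to 30.3).

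MTF1, the zinc-sensing activator, had 39.3, 38.8 and 42.0 CPM in siALDOA and 41.4, 38.5 and 38.2 CPM in siControl, from at least 1095 counts in each library. The groups overlapped, with a log2 fold change of 0.02 (SE 0.0718, 95% interval -0.125 to 0.174, adjusted p = 0.879, edgeR). An annotated gene lies antisense to MTF1, and as the strand setting of the counting is not given in the sources used here, reads of both cannot be told apart. MTF1 RNA does not report its activity, which is set by zinc binding and by entry into the nucleus.

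SLC30A1, the zinc exporter and known MTF1 target, had 88.9, 80.3 and 81.6 CPM in siALDOA and 85.4, 89.0 and 85.2 CPM in siControl. One siALDOA library was among the siControl libraries and the other two were below them. The log2 fold change was -0.05 (SE 0.0621, 95% interval -0.18 to 0.0796, adjusted p = 0.69, edgeR), the narrowest interval of the 5 tested genes. Across the 14 alternatives it lay between -0.10 and 0.02, and that of MTF1 between -0.01 and 0.10.

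**Figure D4:**
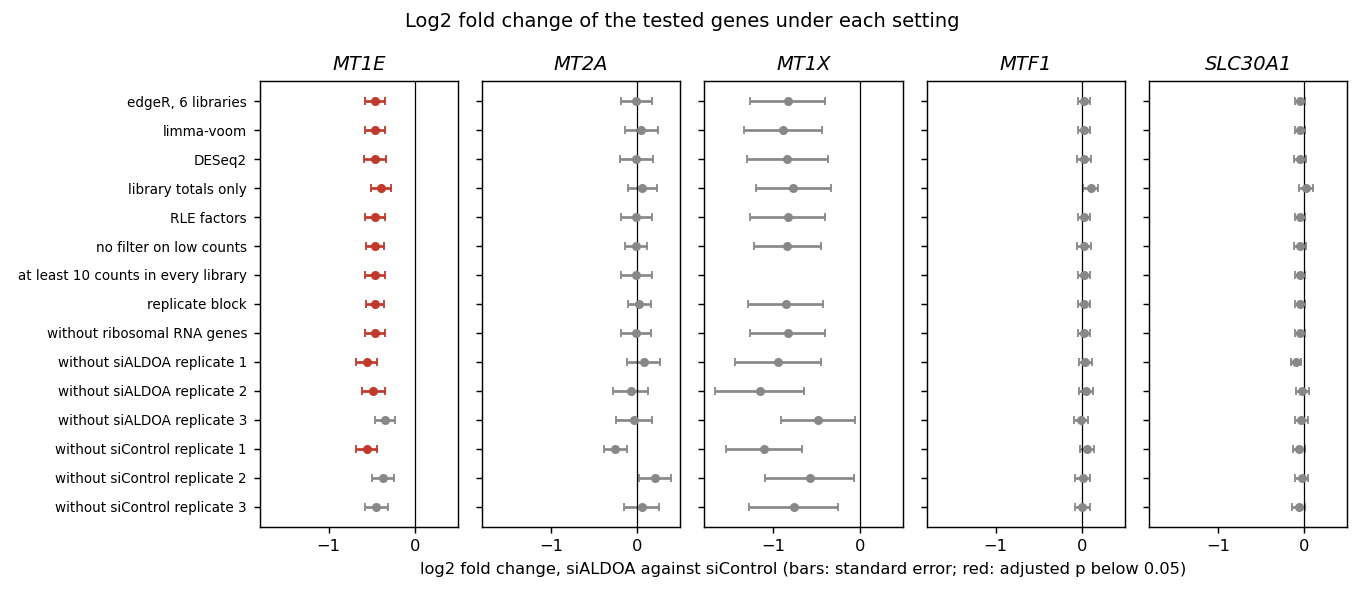
Log2 fold change with its standard error (x axis) of the 5 tested genes under each setting (rows), red where the adjusted p was below 0.05; MT1X is not drawn where it was under the filter of 10 counts in every library. MT1E stays below 0 in every row and loses its call in 3 of the rows that leave out 1 library. MT2A moves between -0.25 and 0.20, and MTF1 and SLC30A1 stay between -0.10 and 0.10.

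Divided by the length of the canonical transcript, the genes ranked MT1E, MT2A, SLC30A1, MTF1, MT1X and MT1F in siControl, at 32.4, 25.6, 14.7, 4.96, 3.17 and 1.14 CPM per kb. In siALDOA MT2A came first with 25.4 ± 2.78 CPM per kb and MT1E followed with 23.5 ± 3.63 CPM per kb (SD, n = 3). Within each library, MT1E per kb was 1.71, 1.11 and 1.19 times MT2A per kb in siControl 1 to 3 and 1.2, 0.878 and 0.744 times in siALDOA 1 to 3. MT1E thus ranked above MT2A in every siControl library and in 1 siALDOA library, while the ranges of the pair over libraries overlapped in both groups. The other neighbours in the order had ranges that did not overlap within a group. The next values in siALDOA were 14.2 CPM per kb for SLC30A1, 5.05 for MTF1, 1.77 for MT1X and 0.275 for MT1F. The MT1E transcript used for this is 746 bases long and that of MT2A 401 bases, and the order was not computed for other isoforms.

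The genes of the zinc exporter and importer families were read from the same fit, and the difference between the exporter and importer lists was not tested. Members of these families carry zinc out of or into the cytosol, some at membranes inside the cell. The lists thus do not measure zinc entry into the cell or exit from it. Of 10 further zinc exporter genes (SLC30 family and TMEM163), 6 were tested and 0 were called by edgeR, limma-voom or DESeq2. In edgeR 1 of the 6 had an unadjusted p below 0.05, against 23.6% of all genes. Groups did not overlap for 1, against 27.7% of all tested genes. This was SLC30A9, named after its values were seen. Its lowest siALDOA value was 65.5 CPM and its highest siControl value 65.49 CPM (log2 fold change 0.03, adjusted p = 0.83, edgeR). With 9.66% of all genes called, a count of 0 among 6 does not set the exporters apart. Their median log2 fold change was -0.04, against 0.00162 for all genes. SLC30A5, which loads zinc into the secretory pathway, had the smallest p, with 42.9 ± 3.98 against 48.4 ± 2.26 CPM (SD, n = 3; log2 fold change -0.17, adjusted p = 0.161, edgeR), and was called in the fit without siALDOA 1 (-0.25, adjusted p = 0.03, edgeR). Of 14 zinc importer genes of the SLC39 family, 11 were tested, 2 fell, none rose and the median was -0.07, with 5.29% of all genes called lower. At an unadjusted p below 0.05 there were 6 of the 11 importers in edgeR, against 23.6% of all genes, and 6 of the 11 had groups that did not overlap, against 27.7% of all tested genes. These 6, listed after their values were seen, were SLC39A6, SLC39A8, SLC39A9, SLC39A10 and SLC39A14, lower in siALDOA, and SLC39A13, higher. The log2 fold changes of the 4 that were not called were -0.16 for SLC39A6, -0.22 for SLC39A8, -0.18 for SLC39A10 and 0.18 for SLC39A13 (adjusted p from 0.103 to 0.211, edgeR). SLC39A9 (ZIP9) had 61.8, 65.4 and 63.0 CPM in siALDOA and 84.2, 84.6 and 85.8 CPM in siControl, groups far apart. Its log2 fold change was -0.42 (SE 0.0604, adjusted p = 8.56e-05, edgeR), and it was called in all 14 alternatives. SLC39A14 (ZIP14), which also carries iron and manganese, had 86.5, 76.9 and 77.4 CPM against 101.8, 97.1 and 94.0 CPM. It fell by 0.28 on the log2 scale (adjusted p = 0.00681, edgeR) and was called in 13 of 14 alternatives, all but library totals (-0.21, adjusted p = 0.108, edgeR). SLC39A4, the importer for dietary zinc, was listed at 0 in all libraries, which, as for LGALS4, may come from the annotation or the counting as well as from absent RNA.

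Copper handling genes were included because metallothioneins also bind copper. All 13 were tested, 2 fell, none rose, and the median log2 fold change was -0.02, with 5.29% of all genes called lower and 4.36% higher. Groups did not overlap for 3 of the 13, against 27.7% of all tested genes, a share that does not set the copper genes apart. STEAP3, an endosomal metalloreductase, had 9.92, 11.98 and 9.68 CPM in siALDOA and 15.2, 14.6 and 17.2 CPM in siControl (log2 fold change -0.57, SE 0.116, adjusted p = 0.00275, edgeR). SLC31A1 (CTR1), the copper importer of the plasma membrane, had 99.7, 107.2 and 116.7 CPM against 119.7, 136.2 and 143.5 CPM (log2 fold change -0.30, adjusted p = 0.00891, edgeR). The groups did not overlap for either gene, though the highest siALDOA value of SLC31A1 was near the lowest siControl value. The SLC31A1 call was lost with library totals, without siControl 2 and without siControl 3 (adjusted p = 0.121, 0.0526 and 0.0838, edgeR). STEAP2, a metalloreductase of the same family as STEAP3 that was named after its values were seen, also had groups apart, but in the other direction and with no call. It had 62.6, 64.6 and 63.4 CPM in siALDOA and 54.6, 53.4 and 59.1 CPM in siControl (log2 fold change 0.19, adjusted p = 0.0723, edgeR; unadjusted p = 0.00844).

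Of 8 transcription factors and coactivators known to act at metallothionein promoters, 7 were tested, 1 rose and none fell, with a median of -0.06 and with 9.66% of all genes called in either direction. The groups did not overlap for 4 of the 7, against 27.7% of all genes. Besides STAT3 these were SP1, USF1 and NFE2L2, named after their values were seen, with lower values in siALDOA but no call (log2 fold changes of -0.13, -0.17 and -0.17, adjusted p = 0.184, 0.229 and 0.109, edgeR). STAT3, which joins the glucocorticoid receptor at some metallothionein genes, had 107.1, 102.5 and 114.0 CPM in siALDOA and 91.2, 88.6 and 90.7 CPM in siControl (log2 fold change 0.26, adjusted p = 0.00839, edgeR). The STAT3 call was lost without siALDOA 3 or siControl 2 (adjusted p = 0.0587 and 0.055, edgeR). The glucocorticoid receptor gene NR3C1 had 14 counts over all libraries and was not tested. Of 10 genes beside the metallothionein cluster or reaching into its edge, 7 were tested. Among these edgeR called 3, with 2 higher and 1 lower, against 9.66% of all genes called in either direction. The groups did not overlap for 4 of the 7, against 27.7% of all genes. NLRC5, the transactivator of MHC class I genes, rose by 1.33 on the log2 scale (adjusted p = 2.18e-07, edgeR), from 9.91 ± 1.2 to 24.8 ± 4.09 CPM (SD, n = 3). In these libraries 19 of 19 interferon response genes also rose, with a median of 1.5 (log2), and their part in the NLRC5 result was not tested. OGFOD1, a ribosomal prolyl hydroxylase gene on the side of MT4, fell by 0.34 on the log2 scale (adjusted p = 0.0169, edgeR), a call lost with library totals, without siALDOA 1 and without siControl 3 (adjusted p = 0.123, 0.0589 and 0.088, edgeR). BBS2, a gene of the ciliary BBSome that overlaps MT4 at the edge of the cluster on the opposite strand, rose by 0.25 (log2; adjusted p = 0.0499, edgeR) but was called in 5 of 14 alternatives and in none that left out 1 library (adjusted p from 0.0707 to 0.149, edgeR). OGFOD1 and BBS2 also overlap each other on opposite strands, OGFOD1 overlaps NUDT21 in the same way, and NLRC5 overlaps unnamed antisense genes, so without a known strand setting their reads cannot be told apart where they overlap. The median over these 7 genes was -0.04, with calls in both directions.

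**Figure D5:**
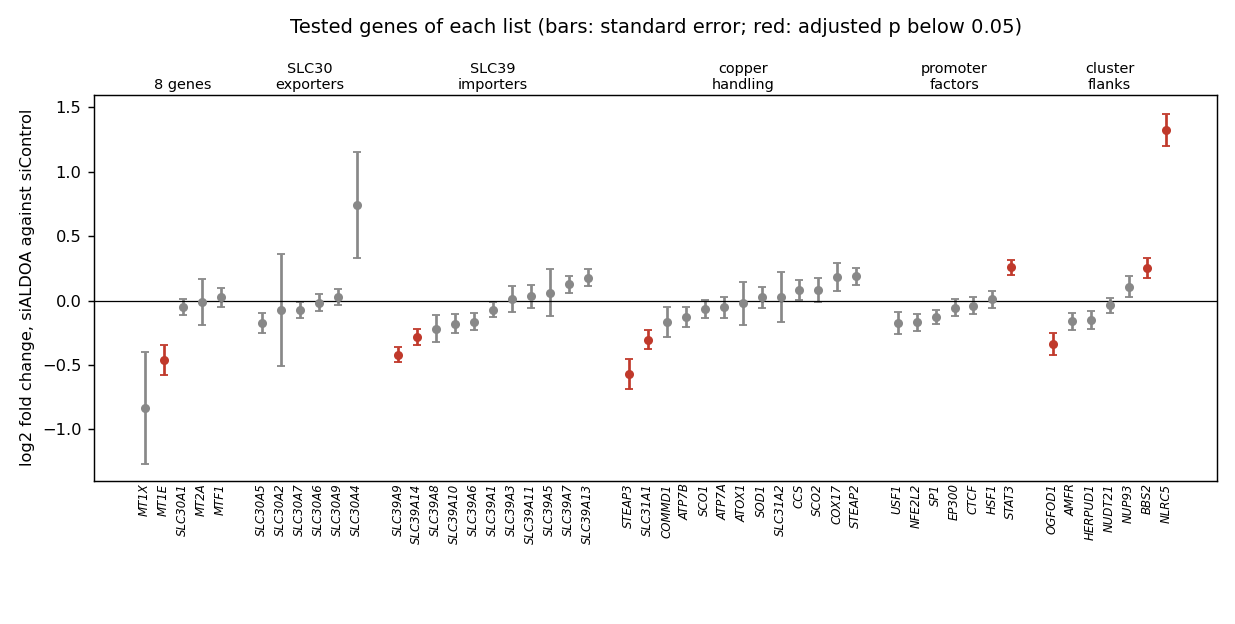
Log2 fold change with its standard error (y axis) of each tested gene (x axis), ordered by value within its list, red where the adjusted p was below 0.05. Red points number 1 among the 8 genes, 0 among SLC30 exporters, 2 each among SLC39 importers and copper genes, 1 among promoter factors and 3 of 7 at the cluster flanks, with MT1E, SLC39A9, SLC39A14, STEAP3, SLC31A1 and OGFOD1 below 0 and STAT3, BBS2 and NLRC5 above. Of all tested genes 9.66% were called.

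The genes whose log2 CPM followed the mean of MT1E, MT1X and MT2A most closely over the 6 libraries were BLOC1S4 (Pearson r = 0.9985), GINM1 (0.9884), SHLD1 (0.9848), ERH (0.9807) and VPS36 (0.9799), out of 13720 genes that averaged 1 CPM or more. Of the genes compared, 131 had an r above 0.9. With 6 libraries and so many genes, values this high are given as a description with no test. MT1X varied most in log2 CPM, from -1.38 to 0.82, against 3.88 to 4.77 for MT1E and 2.72 to 3.73 for MT2A. Pearson r was 0.925 for MT1E and MT1X, 0.397 for MT1X and MT2A and 0.247 for MT1E and MT2A. The mean is therefore not a pattern that MT2A shared closely. None of the 5 genes with the highest r was called between the groups, with adjusted p from 0.238 to 0.602 in edgeR.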

How the data were processed

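RNA-Seq of total RNA from HT29 cells was analysed from 6 libraries, grouped as siALDOA or siControl by the sample titles. The authors used tophat2 for alignment to hg38 and gfold for counting, and the deposited files hold raw, whole-number counts for each gene symbol. The annotation, the strand setting and the treatment of reads with several matches are not given in the sources used here. Counts were tested in R 4.3.3 with edgeR 4.0.16 (filterByExpr, TMM, quasi-likelihood F-test, Benjamini-Hochberg over all genes tested, threshold 0.05), with no covariate, after a test on simulated data. The square root of F gave the standard error of each log2 fold change. Intervals are 95% and cover these libraries, and a floor of 3 counts marks the limit of detection.

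Alternatives were limma-voom (limma 3.58.1), DESeq2 1.42.0, library totals, RLE factors, no filter, a replicate block, a minimum of 10 counts per library, no ribosomal RNA genes and each library left out. Genomic positions and transcripts came from GENCODE 44 and promoters from RefSeq. Figures were drawn with matplotlib 3.10.9 in python 3.11.15.

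The 8 genes, the lists and the tests were chosen with earlier results of these data known. The named genes are the 8, ALDOA, every called gene and the smallest p of each list of zinc, copper, promoter and flanking genes, and the 5 closest patterns. Cell type markers and further single genes were named after their values were seen.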

Additional observations from a re-analysis of the deposited data

How the results depend on the processing

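Scaling by library totals changed the number of genes called lower from 810 to 279 and the number called in the lists of zinc, copper, promoter and flanking genes from 8 to 5, with MT1E still called (log2 fold change -0.39, adjusted p = 0.0353, edgeR). When 1 library was left out, 359 to 644 genes were higher, 471 to 790 lower, 0 to 2 of the 8 genes were called and 5 to 10 list genes were called. The count of 2, without siControl 1, included MT1F, which passed the filter there only through its counts in siControl. The fewest calls came without siControl 2 (359 higher, 490 lower) and without siControl 3 (363 higher, 471 lower). The replicate block gave 987 genes higher, 1175 lower, 1 of the 8 genes called and 10 list genes called. Same-numbered libraries correlated at 0.0348, 0.0274 and 0.0262 in their deviations from the group means, under the 0.1 set for a pairing, although each library correlated best with its own number. The filter of 10 counts in every library removed MT1X, and MT1F and MT1G rested on 56 and 5 counts over all libraries. MT2A was below 0 in 8 of 14 alternatives and never called.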
